A study of Mus musculus with 4 samples.

Results

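Untreated MC3T3-E1 cells, labelled Control, are described here by the level of every gene that their microarray could name. MC3T3-E1 is an osteoblastic line from mouse calvaria, the flat bone of the skull vault, widely used as a model of cells committed to bone formation. Besides this array the series holds 3 more, 1 for each inhibitor of glucosylceramide synthase (50 µM Miglustat, 10 µM D-PDMP or 1.0 µM D-PPMP), which are not used below. The Control cells received none of the inhibitors. Whether they received a vehicle is not given in the labels. Like the other groups they were replated in 60 mm dishes and grown for 24 h before total RNA was taken, and no differentiation medium is mentioned. Of the array's 56605 probes outside the controls, 32994 (58.3%) could be matched to a gene, and these gave 22911 genes, all of which are counted here.

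Osteoblasts lay down a matrix made mostly of type I collagen and then mineralize it. The transcription factor Runx2 commits mesenchymal cells to the lineage, and Sp7 (osterix) acts after it. Collagen synthesis marks the early, proliferating stage, alkaline phosphatase (Alpl) the maturing stage, and bone sialoprotein (Ibsp) and osteocalcin (Bglap) the mineralizing one. Osteoblasts also secrete the factors that control osteoclasts, the cells that resorb bone, chiefly Csf1, Tnfsf11 (RANKL) and its decoy receptor Tnfrsf11b (osteoprotegerin).

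A gene's level is the processed signal of its brightest probe, an intensity from which the scanner software had subtracted the background. A gene is called detected when at least 1 of its probes was well above background by the scanner software's own call, and not detected otherwise. Detected were 14399 genes (62.8%), among them 13448 of 20013 protein-coding genes (67.2%), 781 of 2594 genes for long non-coding RNAs (30.1%) and 131 of 247 transcribed pseudogenes (53.0%). None of 308 negative control spots was well above background, and their signals had a median of 1.05 and a maximum of 3.77. The lowest probe signal that counted as well above background was 4.83, the median of detected genes was 411, and the highest gene signal was 107382. No spot was saturated. Detected genes were ranked by signal, and a percentile below is a gene's place in that ranking. Genes in the highest 10% (1440 genes, signals of 4847 or more) are called high, and those in the lowest 25% (3600 genes, up to 56.9) low. Of all 22911 genes, 6.29% were high, and of protein-coding genes 6.99%.

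**Figure D1:**
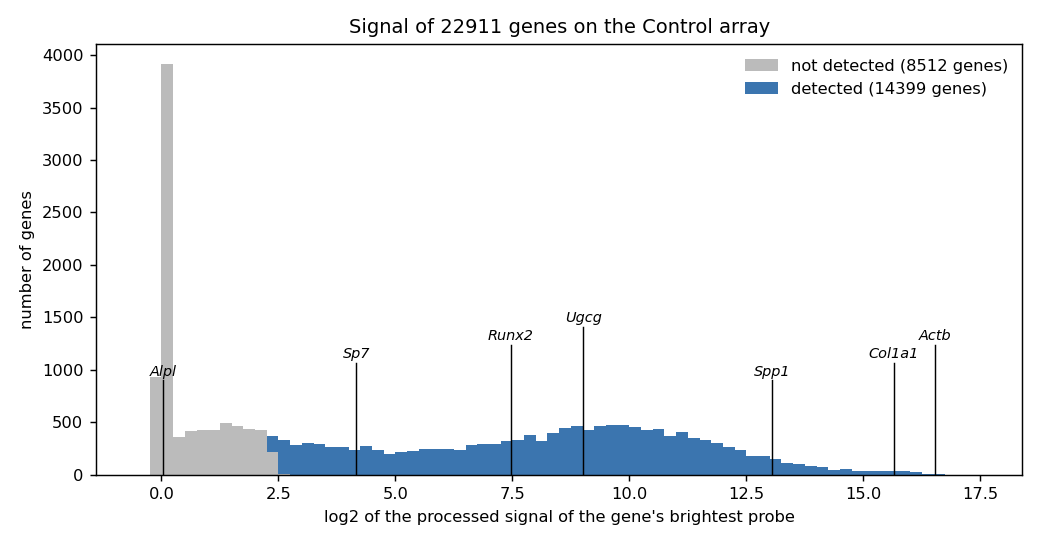
Number of genes (vertical axis) by log2 of the processed signal of the gene's brightest probe (horizontal axis) on the Control array, with the 8512 genes not detected in grey and the 14399 detected genes in blue. Lines mark single genes: Alpl lies in the grey peak of background signals, Sp7 at the dim end of the detected genes, Runx2 and Ugcg near their middle, and Spp1, Col1a1 and Actb at the bright end.

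With 1 array there are no replicates, so no value has an error between cultures and no test was made. Within the array, 278 bright probes with 10 spots each had a median SD of log2 signal of 0.0365, and the scanner software gave a median error of 10.0% for detected spots. These errors cover spots of 1 probe only. Probes differ in how well they bind, so a rank compares probes as well as transcripts. Among 3976 genes with exactly 2 probes, both detected, the probes differed by a median of 5.41-fold, and by 39.3-fold at the 90th percentile. Only 805 (20.2%) agreed within 2-fold. In the ranking such a pair lay a median of 22.7 percentile points apart, and the SD between probes of 1 gene was 22.2 points. For this reason levels are given in the broad classes high, middle, low and not detected, and no difference in abundance is read from the signals of different genes. A further 901 genes with 2 probes (14.7% of 6149) had only 1 of them detected, and for these the class rests on that probe.

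**Figure D2:**
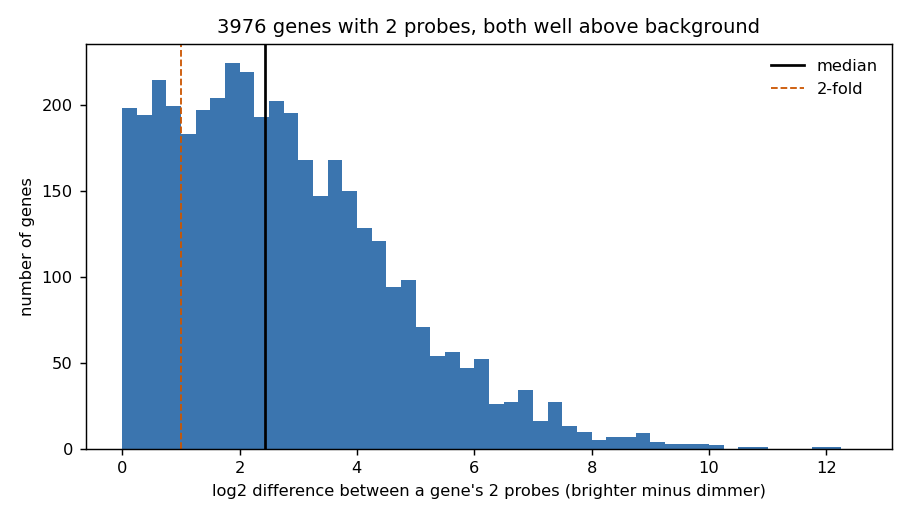
Number of genes (vertical axis) by the log2 difference between the brighter and the dimmer probe (horizontal axis), for the 3976 genes with exactly 2 probes, both well above background. The black line at 2.44 is the median, and the 805 genes left of the dashed line have probes that agree within 2-fold.

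Of the osteoblast markers used to check the label, Col1a1, Spp1, Runx2 and Sp7, all 4 were detected, though Sp7 on only 1 of its 2 probes; the later stage markers Alpl, Ibsp and Bglap were not detected and are described further on. Col1a1, which encodes the alpha chain most abundant in bone collagen, was high at 51415 (percentile 99.4), and both of its probes were detected. Spp1, osteopontin, an acidic glycoprotein that binds mineral and integrins, was also high at 8514 (percentile 94.4). Runx2 was in the middle class at 177 (percentile 37.5), with all 3 of its probes detected. Sp7 was low at 17.9 (percentile 14.2), and its other probe read 1.02 and was not detected. The call for Sp7 is lost if every probe of a gene has to be detected.

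The top of the ranking held structural genes, ribosomal protein genes and a small set of bone matrix genes. Tuba1b, an alpha tubulin, came first at 107382, followed by Ppia, the chaperone cyclophilin A, and the ribosomal protein gene Rpl41. Col1a2, the partner chain of Col1a1 in type I collagen, was the fourth at 101728, and Sparc, osteonectin, which binds collagen and calcium, the sixth at 101376. Between them stood Grn, the secreted growth factor progranulin, at 101609, with its dimmest probe at 657. Actb, cytoplasmic actin, had rank 9 and Acta2, the smooth muscle actin, rank 13 at 86372. Ribosomal protein genes (names in Rpl, Rps and Rplp, with Fau) made up 4 of the first 10, 14 of the first 30 and 43 of the first 100 places. Others in the first 30 were the calcium-binding S100a6 and S100a4, the myosin light chain Myl6, the growth-related Tpt1, the ferritin chain Ftl1, and Gm5523, Kctd14, Glrx2 and Zfp628. Below rank 30, Lgals1, which encodes galectin, and Anxa2, an annexin, were also among the first 60.

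Some of the brightest genes owed their place to 1 probe out of several. In the highest 1% (144 genes), 79 genes had 2 or more probes, and 7 of these had a probe that was not detected. Slc10a1, a bile acid transporter of the liver, is one of them: 1 probe read 63186 and the other 3.40. Pbld1 is another, with probes at 63484 and 0.975. In 15 of the 144 genes the dimmest probe was over 100 times dimmer than the brightest, as for the transcription factor Elk1, with 63575 and 91.4. The probes of these genes do not give 1 level for the gene, and which of them reads the named transcript was not tested. In the highest 10% as a whole, 31 of 739 genes with 2 or more probes had one that was not detected. Gaps between the probes of 1 gene are given in the text for some genes only.

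Genes of bone matrix and mineralization covered the whole range of signals. Of 35 members with a probe, 29 were detected (82.9%, against 67.2% of protein-coding genes). Of the 35, 9 were high (against 6.99% of protein-coding genes), 12 in the middle class and 8 low. The median of the detected members was percentile 64.6 against 50 for all detected genes. The high members were all matrix or matrix-handling genes: Col1a2, Sparc, Col1a1, Mgp (the mineralization inhibitor matrix Gla protein, 19299.6), Serpinf1 (the secreted factor PEDF, 18801), Serpinh1 (the collagen chaperone HSP47, 17626), Postn (periostin, 11781), Spp1 and Ogn (osteoglycin, 6438). The adhesion molecules Cdh2 and Cdh11 and the gap junction protein Gja1 were in the middle class, at 3755, 1399.6 and 546.

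The members not detected were enzymes and proteins of mineralization. Alpl, which frees phosphate for mineral, read 1.02, and Ibsp, which nucleates mineral, 1.03, both within the range of the negative control spots. Bglap, the osteocalcin gene, read 3.96, Dmp1, a matrix protein of late osteoblasts and osteocytes, 1.83, and Phospho1, a phosphatase of matrix vesicles, 2.10. Enpp1, which makes the mineralization inhibitor pyrophosphate, read 3.45. None of these 6 was detected, and each call rests on the gene's only probe. Bglap and Dmp1 would count as detected under the scanner software's less strict call of a positive and significant signal, while Alpl and Ibsp would not. The neighbouring osteocalcin genes Bglap2 and Bglap3 were low, at 8.97 and 11.4, and since these copies are close in sequence their separate signals are uncertain. Pth1r, the receptor for parathyroid hormone, was low at 24.7. Phosphate handling was present in part: the transporters Slc20a1 and Slc20a2 and the pyrophosphate transporter Ank were in the middle class, at 1472, 915 and 745, although the other probe of Slc20a1 was not detected.

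**Figure D3:**
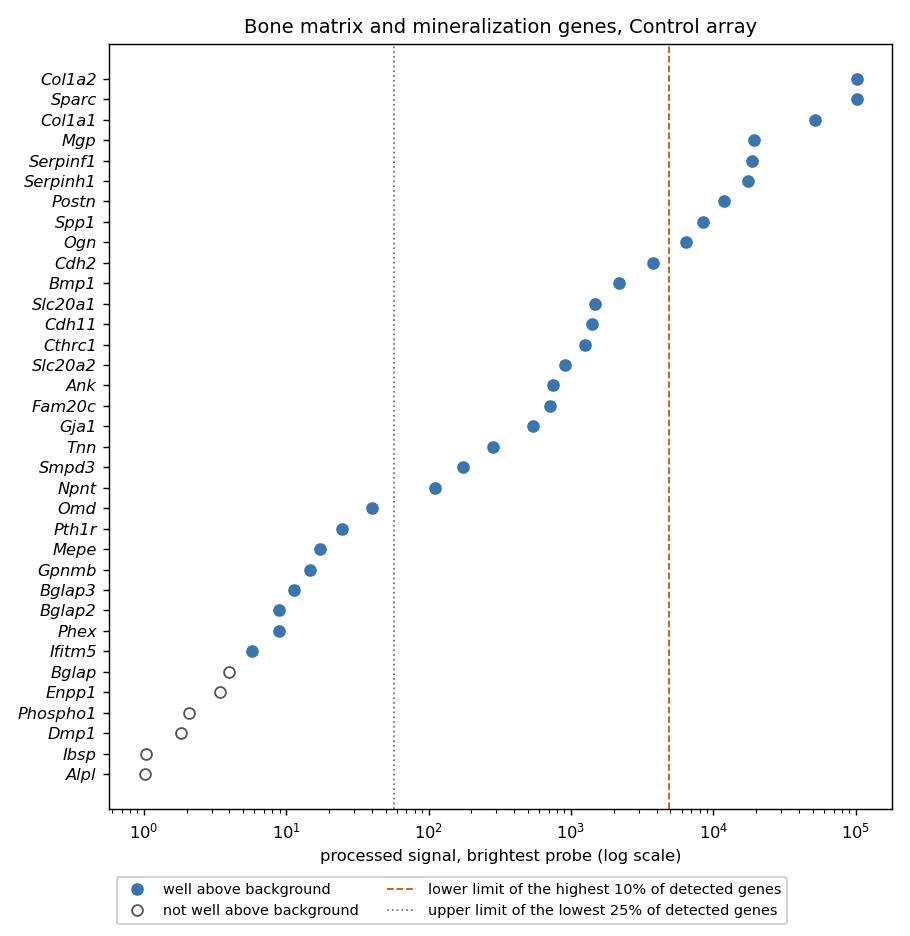
Processed signal of the brightest probe on a log scale (horizontal axis) for the 35 bone matrix and mineralization genes with a probe, ordered by signal, on the Control array. Filled points are detected and open points are not; 9 genes from Col1a2 to Ogn lie right of the dashed limit of the highest 10%, and the 6 open points include Alpl, Ibsp and Bglap.

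Osteocytes are osteoblasts that have become embedded in bone. Of 14 genes associated with them, 11 were detected (78.6%, against 67.2% of protein-coding genes). Of the 14, 2 were high (against 6.99% of protein-coding genes), 6 in the middle class and 3 low. The median of the detected members was percentile 61.6. Sost, the Wnt antagonist sclerostin, read 1.09 and was not detected, nor were Dmp1 and Dkk1, another Wnt antagonist. Mepe and Phex, which act in phosphate and mineral control, were low at 17.3 and 8.87. Fgf23, the phosphate-lowering hormone secreted by osteocytes, was in the middle class at 3638 on its only probe (percentile 86.8). Capg, an actin-capping protein, and Pdpn, podoplanin, were high at 9216 and 6969.

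The promoters of these genes were set beside their levels, because the share of genes detected varied with promoter sequence over the whole array. RefSeq promoters of build GRCm38.p6, each of 300 bases with 250 before and 50 after the first listed start, were found for 16031 protein-coding genes (80.1%). Of genes with 0 to 3 CpG dinucleotides in that window, 29.2% were detected. The share was 50.6% with 4 to 8, 73.2% with 9 to 15, 86.9% with 16 to 24 and 89.0% with 25 or more. The median CpG count was 4 in genes not detected, 8 in low genes and 21 in both middle and high genes. The letters TATAAA, searched on both strands, occurred in 22.0% of promoters of genes not detected, 13.0% of low, 6.46% of middle and 10.9% of high genes, against 12.8% of all 16031 protein-coding genes and 14.2% of all 27025 promoters in the table. The letters TGTGGT, a core that Runx factors bind, also searched on both strands, occurred in 17.6%, 16.1%, 11.9% and 12.3% of the same 4 classes, against 14.4% of the protein-coding genes and 16.9% of all promoters. CpG counts are thus lower among dark genes over the array, while TATAAA is most frequent in genes not detected.

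Bone matrix genes, taken only as detected or not, did not show that order of CpG counts. Among the 26 of 35 with a promoter in the table, the 20 detected had a median of 7.5 CpG (range 1 to 53) and the 6 not detected a median of 14.5 (range 4 to 42). By class, the count ranged from 1 to 9 in low genes, 7 to 53 in middle genes and 3 to 16 in high genes. TATAAA occurred in 4 of the 20 detected and in 2 of the 6 not detected. Sparc, Spp1, Postn and Ogn were high with 4, 3, 4 and 4 CpG, whereas Alpl and Phospho1 were not detected with 26 and 42. Shown are 3 promoters of high genes and 3 of genes not detected, written 5′ to 3′ on the strand of the gene. Capitals mark each CpG and each TATAAA or TGTGGT on either strand, neither of which contains a CpG. Sparc (chr11:55420031-55420330, minus strand) and Spp1 (chr5:104434861-104435160, plus strand) are CpG-poor bone genes. Six2 (chr17:85688205-85688504, minus strand), a homeobox gene of the high class, has 37 CpG. Ibsp (chr5:104299037-104299336, plus strand) and Bglap (chr3:88384417-88384716, minus strand) each hold the TATAAA letters near the start, at 28 bases before it on the opposite strand in Ibsp and 27 bases before it in Bglap. Alpl (chr4:137796335-137796634, minus strand) is the CpG-rich gene that was not detected.
Sparc: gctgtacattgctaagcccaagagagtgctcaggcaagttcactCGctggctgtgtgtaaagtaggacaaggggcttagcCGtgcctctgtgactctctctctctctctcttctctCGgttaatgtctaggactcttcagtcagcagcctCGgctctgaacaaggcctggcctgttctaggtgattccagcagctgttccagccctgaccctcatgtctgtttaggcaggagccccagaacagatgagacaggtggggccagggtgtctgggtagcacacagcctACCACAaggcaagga
Spp1: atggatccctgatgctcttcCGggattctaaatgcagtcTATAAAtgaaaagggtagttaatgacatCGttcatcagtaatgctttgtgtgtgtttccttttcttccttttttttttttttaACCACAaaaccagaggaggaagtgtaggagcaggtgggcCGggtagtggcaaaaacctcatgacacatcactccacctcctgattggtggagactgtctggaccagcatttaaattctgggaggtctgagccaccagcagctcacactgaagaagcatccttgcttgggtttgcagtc
Six2: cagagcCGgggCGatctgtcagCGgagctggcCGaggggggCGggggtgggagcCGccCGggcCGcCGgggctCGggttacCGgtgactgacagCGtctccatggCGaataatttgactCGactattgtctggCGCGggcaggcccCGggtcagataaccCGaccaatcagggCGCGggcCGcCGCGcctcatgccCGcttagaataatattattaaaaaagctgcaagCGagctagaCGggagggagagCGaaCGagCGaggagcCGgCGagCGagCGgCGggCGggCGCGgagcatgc
Ibsp: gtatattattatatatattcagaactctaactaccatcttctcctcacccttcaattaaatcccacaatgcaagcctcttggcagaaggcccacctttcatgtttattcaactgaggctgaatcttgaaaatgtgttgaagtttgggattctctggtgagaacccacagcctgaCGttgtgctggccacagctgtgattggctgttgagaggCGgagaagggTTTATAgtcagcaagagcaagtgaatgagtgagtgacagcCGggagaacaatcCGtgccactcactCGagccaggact
Bglap: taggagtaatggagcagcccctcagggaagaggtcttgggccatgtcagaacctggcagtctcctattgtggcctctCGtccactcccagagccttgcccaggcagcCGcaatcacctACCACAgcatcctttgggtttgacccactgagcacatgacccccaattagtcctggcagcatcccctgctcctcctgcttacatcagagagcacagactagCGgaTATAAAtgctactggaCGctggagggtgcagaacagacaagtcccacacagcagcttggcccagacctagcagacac
Alpl: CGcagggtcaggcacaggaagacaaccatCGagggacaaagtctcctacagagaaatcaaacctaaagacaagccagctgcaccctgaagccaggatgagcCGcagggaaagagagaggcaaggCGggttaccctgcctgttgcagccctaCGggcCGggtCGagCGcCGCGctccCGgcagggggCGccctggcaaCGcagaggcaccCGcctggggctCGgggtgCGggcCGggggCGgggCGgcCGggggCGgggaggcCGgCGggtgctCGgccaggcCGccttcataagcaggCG
Sparc, Spp1 and Bglap hold 1 copy each of ACCACA, which is TGTGGT read on the other strand. In Spp1 the TATAAA letters begin 211 bases before the first listed start. Spp1 and Alpl have 2 listed starts each, and only the first is shown. A match of letters is a description of the window and not a binding site.

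Matrix genes were well represented among the high genes. Of 201, 153 were detected and 40 were high (against 6.29% of all genes and 6.99% of protein-coding genes). The median of the detected ones was percentile 66.6. Collagen chains were detected in 31 of 44 cases, 8 of them high. Beyond type I collagen these were Col6a3 (22262), Col5a1 (21084), Col6a1 (17252), Col8a1 (12373), Col2a1 (12054) and Col3a1 (10435). Types III and V form mixed fibrils with type I collagen, and type VI makes beaded filaments around cells. Col2a1 is known as the collagen of cartilage. The basement membrane chains Col4a1 and Col4a2 were in the middle class at 4329 and 3101, and 13 chains were not detected, including Col10a1 of hypertrophic cartilage (1.15), Col4a3, Col4a4 and Col15a1.

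The machinery that makes and crosslinks collagen was detected almost entirely. Of 34 genes, 31 were detected and 10 high, with a median of percentile 78.3. Pcolce, which speeds removal of the collagen propeptide, was high at 29771, Fkbp10, a collagen-folding isomerase, at 24714, and Lox, the crosslinking lysyl oxidase, at 11123. Crtap, P3h4, P4hb and Ppib of the prolyl hydroxylation machinery in the endoplasmic reticulum were also high. The lysyl hydroxylases Plod1, Plod2 and Plod3 were in the middle class at 297, 668 and 2242. Not detected were Adamts3, Colgalt2 and Tll2, each a relative of a detected enzyme: Adamts2 read 6644 and Colgalt1 9888, both high. Adamts2 and Colgalt1 had their dimmer probes 6.40 and 5.08 log2 units below the brighter ones.

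Matrix glycoproteins and proteoglycans were detected in 46 of 58 cases, 14 of them high. Fn1, fibronectin, read 54174, Fbln2, a fibulin, 24552, and Efemp2, a fibulin needed for elastic fibres, 20272. The matricellular CCN genes Ccn2, Ccn4, Ccn5 and Ccn1 were high, from 15769 for Ccn2 to 5336 for Ccn1, and Ccn6 was not detected at 1.02. The dimmer probe of Ccn4 lay 6.22 log2 units below the brighter one. Latent TGF-beta binding proteins were high (Ltbp1 at 5093, Ltbp3 at 6205) or in the middle class (Ltbp2 at 4661, Ltbp4 at 2621). Elastin itself (Eln) was low at 8.96, and the cartilage proteoglycan Acan was not detected at 0.968. Small leucine-rich proteoglycans, which bind collagen fibrils, were detected in 13 of 16 cases: Ogn and Prelp (5128) were high, while Fmod (4404), Dcn (3750.4), Bgn (3104) and Lum (103) were in the middle class. Of 11 laminin chains 9 were detected, with Lamb1 high at 7330.4 and Lamc1 at 3408 in the middle class, and Lama3 and Lamc3 not detected.

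Among matrix proteases and their inhibitors, 3 of 4 Timp genes were high and 13 of 21 metalloproteinases were not detected. Timp2, Timp1 and Timp3, tissue inhibitors of metalloproteinases, were high at 54837, 24283 and 13317, and Timp4 was low at 10.4. Of the 8 metalloproteinases detected, Mmp2, a gelatinase, was high at 5245, and Mmp14, its membrane-bound activator, was in the middle class at 665. Mmp13, the collagenase of mature osteoblasts, read 1.22, and Mmp9 and Mmp3 were likewise not detected, at 2.78 and 1.06. Counting all 38 proteases and inhibitors, 23 were detected and 5 were high.

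Receptors were detected in 168 of 241 cases (69.7%, against 67.2% of protein-coding genes), with a median of percentile 45.0. Of the 241, 11 were high, against 6.99% of protein-coding genes. Integrins join the cell to its matrix as pairs of an alpha and a beta chain. Of 26 chains 19 were detected. Itga11, the alpha chain of a collagen receptor, was high at 22552, as were its partner Itgb1 (15187) and the vitronectin receptor chains Itgav (8614) and Itgb5 (9048). Itga5, the fibronectin receptor chain, was in the middle class at 452, and Itga1, an alpha chain of another collagen receptor, at 114. Itga2, which also forms a collagen receptor, was not detected at 0.989, nor were Itga4 and the chains Itgax, Itgad and Itgae of white blood cells. Itgam, also known from white blood cells, had 1 probe at 4380.3 and the other at 6.37, both detected.

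Receptor tyrosine kinases were detected in 37 of 56 cases. Axl, the receptor of the ligand Gas6, was high at 22971, although its other probe read 235. Ephb3, an ephrin receptor, and Ryk, an atypical Wnt receptor, were also high, at 12283 and 6596. Fgfr1 (3873), Pdgfrb (3364), the collagen receptor Ddr2 (2712), Egfr (1177), Igf1r (1103) and Pdgfra (649) were in the middle class. All 4 fibroblast growth factor receptors were detected, Fgfr2 at 108 and Fgfr3 at 199.7 in the middle class and Fgfr4 low at 8.73. Fgfr2 and Fgfr3 had their dimmer probes 3.23 and 4.55 log2 units below the brighter ones. Among the 19 not detected were receptors of blood, vessel and nerve cells: Kit (0.981), Flt3 (1.28), Kdr (0.992), Tek (1.02) and Ret (2.58).

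The receptors of the BMP and TGF-beta family were detected in 15 of 18 cases with none high. Tgfbr2, the type II TGF-beta receptor, read 3735, and its type I partner Tgfbr1 440.2. For bone morphogenetic proteins, Bmpr2 was at 2056, Acvr1 at 2686 and Bmpr1a at 1130.2, all in the middle class, and Bmpr1b was not detected at 2.62. Activin type II receptors were low, with Acvr2a at 37.0 and Acvr2b at 36.3.

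Wnt receptors were detected in 20 of 24 cases, 1 of them high (Ryk). The co-receptors Lrp6 and Lrp5 were in the middle class at 2921 and 443, and so was Lrp4, the sclerostin-binding co-receptor, at 921. Of 10 Frizzled receptors 9 were detected, from Fzd2 at 2799 down to Fzd3 at 6.56, and Fzd10 was not. Lgr4, a receptor for R-spondins, was in the middle class at 194, whereas Lgr5 was not detected at 1.02. Of 11 Notch and Hedgehog receptors and transducers 9 were detected: Smo, the Hedgehog transducer, was high at 8442, Notch2 read 1527, and the Hedgehog receptor and target Ptch1 was low at 32.3.

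Hormone and G protein-coupled receptors studied in bone had the lowest median of the receptor lists. Only 33 of 66 were detected, none was high, and the median was percentile 25.4. Npr3, which clears natriuretic peptides, at 3787 and the thrombin receptor F2r at 3704 were in the middle class. Sphingosine phosphate receptors were detected in 3 of 5 cases, S1pr1 at 830.4 and S1pr2 at 394 in the middle class and S1pr3 low at 7.26. Prostaglandin E receptors were detected in 2 of 4, Ptger4 at 109 and Ptger1 at 59.7, while Ptger2 read 1.00. Not detected were the calcitonin receptor Calcr of osteoclasts (1.02), the calcium-sensing receptor Casr (3.48) and the chemokine receptor Cxcr4 (5.06).

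Cytokine and TNF family receptors were detected in 40 of 45 cases, though 11 of the 40 also had a probe that was not detected. Csf3r, the receptor of granulocyte colony-stimulating factor, was high at 11601 on its only probe. Tnfrsf12a, the receptor of the cytokine TWEAK, and Tnfrsf1a, the main TNF receptor, were high at 8587 and 5472. The shared IL-6 family receptor Il6st (1115) and its partners Osmr (1491), Lifr (579) and Il11ra1 (2647) were all in the middle class. The receptors missing from the detected set were Cd40, Il18r1, Ngfr, Il10ra and Il7r.

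Secreted ligands were detected in 156 of 271 cases (57.6%, against 62.8% of all genes and 67.2% of protein-coding genes). Of the 271, 15 were high, against 6.99% of protein-coding genes, and the median of the detected ones was percentile 34.3. In the FGF family 9 of 22 were detected. Fgf7, a mesenchymal factor that acts on epithelia, was high at 8429, Fgf18, which promotes bone formation, was in the middle class at 327, and Fgf2 was low at 7.77. Of 19 Wnt genes 10 were detected and none was high. Wnt10a read 1651, Wnt5b 818, Wnt10b, which favours bone over fat formation, 487, and Wnt5a 258. Wnt3a and Wnt16 were not detected, at 1.09 and 1.06.

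Most secreted Wnt modulators were dark, with 6 of 19 detected. Dkk3, a divergent member of the Dickkopf family, was high at 9903, and Sfrp2, a secreted Frizzled-related protein, in the middle class at 1581. The R-spondins Rspo2 and Rspo3, which strengthen Wnt signals, were in the middle class at 799 and 162. Not detected were the antagonists Sost, Dkk1 (1.97), Dkk2 (1.02), Sfrp1 (1.09), Sfrp4 (0.972), Frzb (1.13) and Wif1 (4.17).

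TGF-beta superfamily ligands were detected in 19 of 33 cases and their antagonists in 14 of 17. Tgfb3 and Inhba, the activin A chain, were high at 6207 and 5104, and Tgfb2 and Tgfb1 were in the middle class at 603 and 135. Only 3 of 10 Bmp genes were detected: Bmp4 was in the middle class at 1145, and Bmp8a and Bmp10 were low. Bmp2 read 1.03 and Bmp7 1.94, both not detected. Among secreted antagonists, Fstl1, a follistatin-like protein, was high at 29713, and Grem1 and Fst, which bind BMPs or activins, were in the middle class at 2897 and 1075. Nog, the BMP antagonist noggin, was also in the middle class, at 78.8.

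Of 33 ligands of the EGF, IGF, PDGF, VEGF and related families 26 were detected. Gas6, the ligand of Axl, was high at 8829, as were Ptn, pleiotrophin, at 5974 and Igf1 at 4934. Pdgfa (3773) and Vegfa (1639) were in the middle class, and Igf2, the fetal growth factor, at 62.1 was near the limit of the low class. IGF binding proteins were detected in 6 of 8 cases, with Igfbp7 high at 22492 and Igfbp6 at 5345, and Igfbp5, an abundant form in bone, in the middle class at 399.

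Chemokines were detected in 15 of 35 cases. Cxcl12, which holds blood stem cells in the marrow, was high at 13633, and Cx3cl1 and the monocyte attractant Ccl2 were in the middle class at 3524 and 1451. Cytokines and osteoclast regulators were detected in 21 of 42. Csf1, which keeps osteoclast precursors alive, was high at 12852, and Ptges, an enzyme of prostaglandin E synthesis, at 5903. Tnfrsf11b was in the middle class at 781, whereas Tnfsf11 read 3.51 and neither of its probes was detected. Il6, an inflammatory cytokine, was in the middle class near its lower limit at 59.7, and Tnf was low at 26.7 on 1 of 2 probes.

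Guidance ligands (semaphorins, ephrins, netrins and Slits) were detected in 27 of 34 cases. Sema4c was high at 17801, with its dimmest probe at 32.6, and Sema3a, a semaphorin that protects bone, was in the middle class at 2173. Of 10 Notch and Hedgehog ligands, 3 were detected: Jag1 (739) and Dlk2 (485) in the middle class and Ihh low (13.1). Shh read 1.09 and Dll1 2.68.

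**Figure D4:**
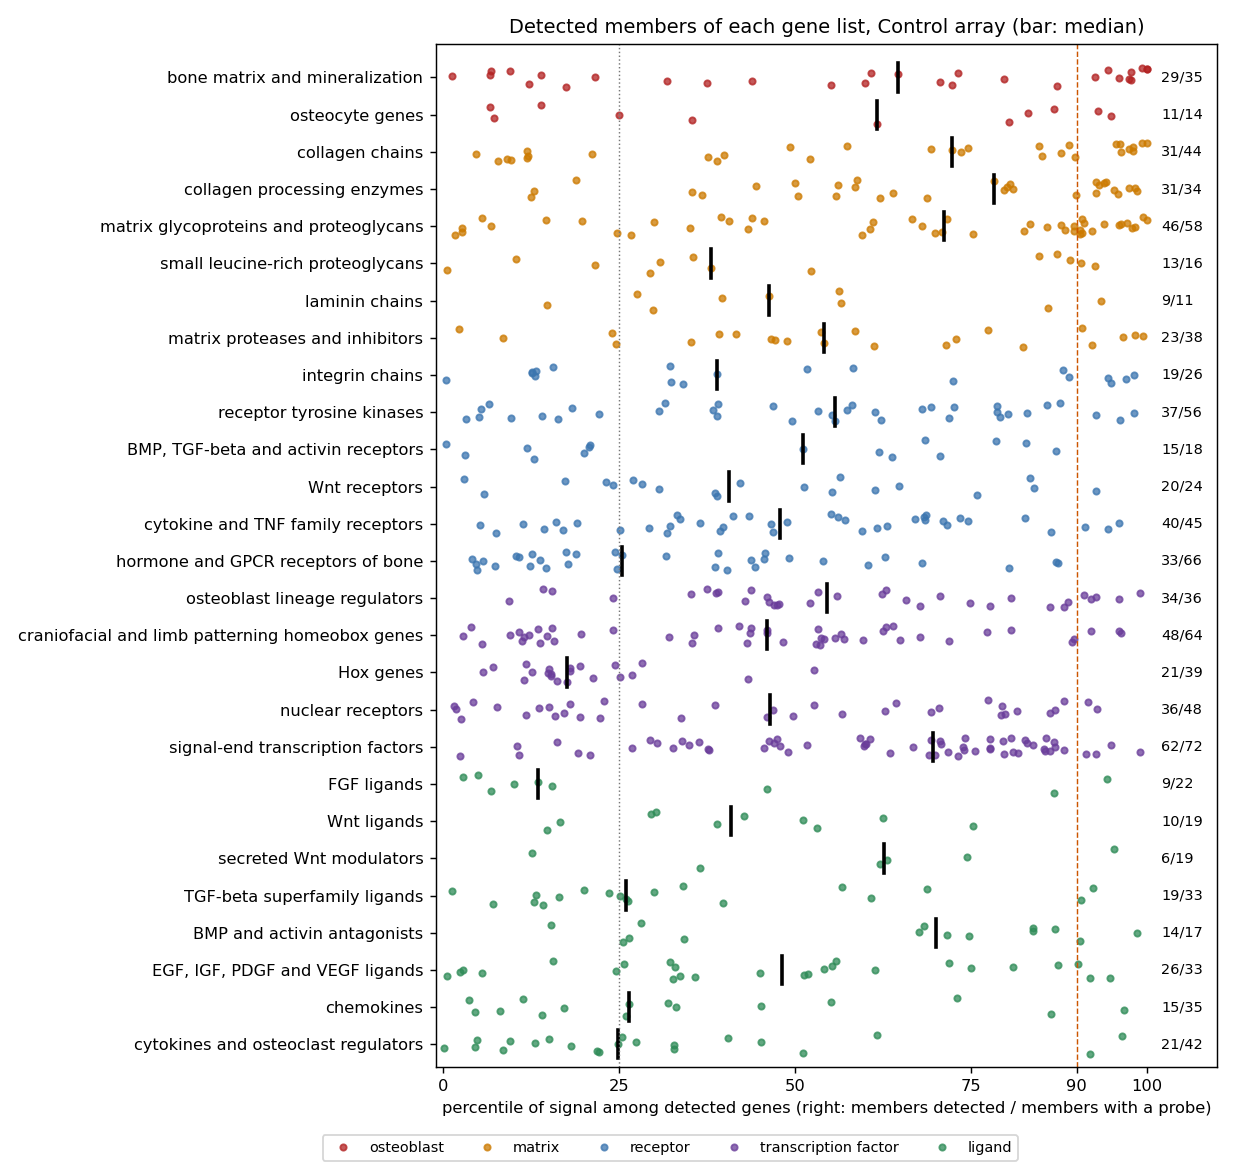
Percentile of signal among detected genes (horizontal axis) for the detected members of 27 gene lists (rows, coloured by role) on the Control array, with a black bar at each list's median and the count of members detected over members with a probe at the right. Dashed and dotted lines mark percentiles 90 and 25; collagen processing enzymes and collagen chains lie to the right, and Hox genes, FGF ligands and hormone receptors to the left.

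Transcription factors were detected in 235 of 332 cases (70.8%, against 67.2% of protein-coding genes), with a median of percentile 46.9. Of the 332, 13 were high, against 6.99% of protein-coding genes. Regulators of the osteoblast lineage were nearly all detected, 34 of 36. Atf4, which drives amino acid supply and late osteoblast genes, was high at 40783. Prrx2 and Prrx1, homeobox factors of skeletal mesenchyme, were high at 11684 and 6015, and so were Junb, an AP-1 factor, and Cbfb, the partner subunit of Runx2, at 6649 and 5405. Junb had a dimmer probe at 70.9. Dlx3 (835), Dlx5 (281), Msx2 (492) and Twist1 (197), which act beside or upstream of Runx2, were in the middle class. Tcf7, a Wnt effector, and Mef2c were not detected, at 4.16 and 1.32.

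Of 64 homeobox genes of craniofacial and limb patterning 48 were detected: Six2, Prrx2 and Prrx1 were high, 30 were in the middle class and 15 low, with a median of percentile 46.0. Six2, which marks mesenchyme of the skull and kidney, read 12322. The Iroquois gene Irx1 at 4515 and the calvarial regulator Alx4 at 2329 were in the middle class. All 6 Iroquois genes were detected, and of 9 Pax genes 5, with Pax3 at 594. Hox genes, which set position along the trunk and limbs, were detected in 21 of 39 cases with none high and a median of percentile 17.6. The Hoxa cluster had 8 of 11 detected, Hoxb 5 of 10, Hoxc 8 of 9 and Hoxd 0 of 9. Hoxa10 (477) and Hoxc9 (271) gave the largest signals among them, and the largest in the Hoxd cluster, Hoxd10, read 2.82.

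**Figure D5:**
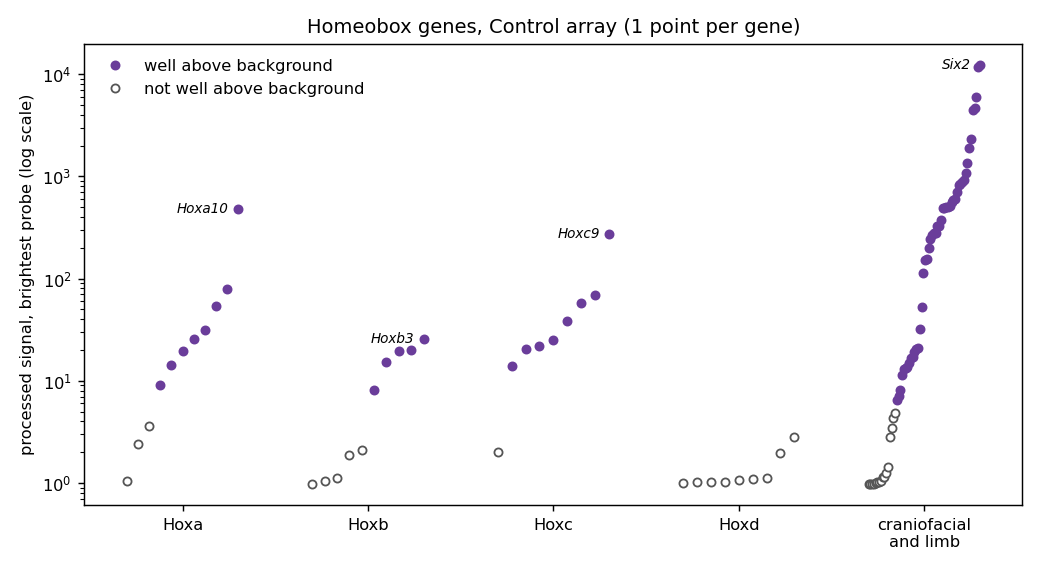
Processed signal of the brightest probe on a log scale (vertical axis) for the 39 Hox genes by cluster and 64 homeobox genes of craniofacial and limb patterning (horizontal axis, 1 point per gene, ordered by signal within a group) on the Control array. Filled points are detected: 8 in Hoxa, 5 in Hoxb, 8 in Hoxc, none in Hoxd and 48 in the patterning group, where Six2 reaches 12322.

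Sox genes were detected in 12 of 20 cases and T-box genes in 7 of 17. Sox9, the cartilage regulator that is also active in osteochondral progenitors, was in the middle class at 358, and Sox11 and Sox4 at 1080.0 and 347. Sox5 read 3625 on 1 of 3 probes only, the dimmest being at 1.11. Tbx3, Tbx15 and Tbx18, T-box factors of limb and trunk mesenchyme, were in the middle class at 929.5, 826 and 744, while Tbx5, of the forelimb and heart, and Tbx4, of the hindlimb, were not detected, at 0.959 and 1.02.

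Factors that set other lineages were detected in 35 of 57 cases. Klf4, a factor of fibroblasts, epithelia and stem cells, was high at 13334, as were Foxl2 at 7178 and Cebpb, which acts early in fat and bone cells, at 5076. Scx, the tendon factor scleraxis, was in the middle class at 3331. The muscle factors Myod1 and Myf5 (1.02 and 1.02), the blood factors Spi1 and Gata1 (1.24 and 1.54) and the heart and gut factor Gata4 (1.13) were not detected. Pparg, the fat cell regulator, was low at 25.9. The Runx2 relatives Runx1 and Runx3 were in the middle class at 1809 and 478.

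Nuclear receptors were detected in 36 of 48 cases. Rxra, the common partner receptor, and Rarg, a retinoic acid receptor, were high at 6750.1 and 5725, Rxra having its other probe at 59.2. Receptors for steroid hormones that act on bone were in the middle or low class: Nr3c1, for glucocorticoids, at 2132 and Vdr, for vitamin D, at 1252 were in the middle, while Esr1, for oestrogen, at 24.1 (2 of 6 probes detected) was low. Pgr, Hnf4a and Ppara were among the 12 not detected.

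Factors at the end of signalling pathways were detected in 62 of 72 cases with a median of percentile 69.6. Besides Atf4 and Junb, Rela of NF-kappaB and Jund of AP-1 were high, at 9157 and 5534. The dimmer probe of Rela lay 7.25 log2 units below the brighter one. The coactivators of the Hippo pathway, Yap1 at 4077 and Wwtr1 (TAZ) at 3468, were in the middle class, as were all 4 Tead factors that they bind. Smad4 (3305) and the receptor-activated Smad3 (2335), Smad5 (1939.6), Smad1 (1564) and Smad2 (687), along with beta-catenin (Ctnnb1, 2653) and Tcf7l2 (2169.8), were also in the middle class. Gli3 read 1261, whereas Gli2 was not detected at 1.58. Epas1, Mycn, Heyl, Hey2, Stat4, Irf4 and Irf8 were among the others not detected.

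By median, contractile and cell cycle genes were the brightest lists after the reference genes (percentile 97.5). Of 24 contractile and cytoskeletal genes known from smooth muscle and myofibroblasts, 23 were detected (95.8%, against 67.2% of protein-coding genes). Of the 24, 19 were high, against 6.99% of protein-coding genes. The median of the detected members was percentile 97.4. Acta2 is the actin of smooth muscle and myofibroblasts. Myl9, a myosin light chain, read 44435, Tagln, an actin-binding protein of smooth muscle, 37083, and Vim, the mesenchymal filament vimentin, 30955. The late smooth muscle genes were different: Myh11, the smooth muscle myosin, was low at 8.39 and Des, desmin, was not detected at 4.72. Actin genes are close in sequence, and cross-binding between their probes was not tested.

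Of 37 cell cycle genes 34 were detected (91.9%, against 67.2% of protein-coding genes). Of the 37, 16 were high, against 6.99% of protein-coding genes. The median of the detected members was percentile 89.8. Mcm6 (19534) and Mcm3 (10807) of the replicative helicase and the cyclins Ccnd2 (18598) and Ccnd1 (10943) were high. So were Cdk4 (18531), the kinase of these cyclins, and the proliferation marker Mki67 (7785). Mcm6 had its dimmer probe 6.52 log2 units below the brighter one. The inhibitors Cdkn2a, Cdkn2b and Cdkn1c were the 3 members not detected, at 3.29, 3.15 and 1.70, while Cdkn1a and Cdkn1b were in the middle class at 1608 and 2022. Reference genes were detected in 12 of 12 cases and high in 10, with Gapdh at 53154.

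The mRNA of the enzyme that the series is about was detected without treatment. Ugcg, glucosylceramide synthase, read 516 (percentile 54.1), with all 3 probes detected. Of 28 genes of glycosphingolipid synthesis 22 were detected (78.6%, against 67.2% of protein-coding genes). Of the 28, 1 was high, against 6.99% of protein-coding genes. Degs1, which makes ceramide, was high at 5422, and B4galt5, a lactosylceramide synthase, and St3gal5, which makes the ganglioside GM3, were in the middle class at 2416 and 4497. B4galnt1 and A4galt, at the head of the ganglio and globo branches, were in the middle class, A4galt at 121, and B3gnt5, of the lacto branch, was not detected at 2.46 on any of 3 probes. St8sia1, which makes GD3, was low at 11.99.

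Markers of other cell types were detected in 63 of 117 cases (53.8%, against 67.2% of protein-coding genes). Of the 117, 5 were high, against 6.99% of protein-coding genes. Fat cell markers were detected in 4 of 12, all low, and Adipoq and Plin1 read 2.22 and 1.08. Macrophage and osteoclast markers were detected in 9 of 16, with 6 in the middle class and none high. The 6 were Itgam, whose probes are given above, the collagen-degrading protease Ctsk (2612), Csf1r (346), Cd14 (233), Tnfrsf11a (87.5, on 1 of 2 probes) and Cd68 (62.7). The 7 members not detected were Ptprc (1.00), Adgre1 (1.13), Lyz2 (2.22), Tyrobp (1.13), Fcgr1, Mrc1 and Calcr. Endothelial markers were detected in 3 of 12, Flt1 being in the middle class at 2069.7, and Cdh5, Kdr and Vwf were not detected. Lymphocyte and erythroid markers were detected in 5 of 11, among them Cd4 at 365, with Cd8a not detected. Cd4 had its dimmer probe 6.05 log2 units below the brighter one.

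In other lists, genes in the high or middle class stood beside members that were not detected. The shares detected in these lists ran from 50% (skeletal muscle) to 73.3% (tendon and fibroblast), against 67.2% of protein-coding genes. Cartilage markers were detected in 10 of 15: Col2a1 was high, but Acan, Matn1, Col10a1, Hapln1 and Cnmd were not detected. Skeletal muscle markers were detected in 6 of 12: the sarcomeric actins Actc1 and Acta1 read 13437 (high) and 3332, but Myod1, Myog, Ckm and Myh1 were not detected. Epithelial markers were detected in 7 of 12, with Krt14 and Trp63 in the middle class at 1839 and 923 and Epcam not detected at 3.11. Neural and glial markers were detected in 8 of 12, 7 of them in the middle class, among them Snap25 (3176, on 1 of 2 probes), Tubb3 (1262), Mbp (813), Syn1 (283), S100b (119.8) and Nes (109.6). Rbfox3, Gfap, Olig2 and Stmn2 were not detected. Tendon and fibroblast markers were detected in 11 of 15: S100a4 (75934), Cd34 (17672) and Thy1 (12115) were high, but Tnmd, Dpt, Dpp4 and Fap were not detected. The dimmer probe of Cd34 lay 6.92 log2 units below the brighter one. The part of other cells in any of these signals was not tested, and in a bulk sample few cells with much RNA cannot be told apart from many cells with little.

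Over all 47 lists, 862 of 1254 genes with a probe were detected (68.7%), close to the 67.2% of protein-coding genes. By role, osteoblast genes were detected in 38 of 46 cases and matrix genes in 153 of 201, receptors in 168 of 241, transcription factors in 235 of 332 and ligands in 156 of 271. High were 11 of the 46 osteoblast genes and 40 of the 201 matrix genes, against 11 of 241 receptors, 13 of 332 transcription factors and 15 of 271 ligands. Of all protein-coding genes, 6.99% were high.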

How the data were processed

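Total RNA of the Control cells was labelled with Cy3 and hybridised to 1 Agilent one-colour array, per the labels' protocols. The deposited scanner file was written by Agilent Feature Extraction 12.1.1.1, and its processed signal is an intensity, per the file headers, that was background-subtracted and detrended within the array without normalization between arrays. Its calls of well above background, outlier and saturated are the scanner software's. The authors also deposited a log2 value per probe. Its Control column has a median of -4.1 and a 75th percentile of 0, and 99.97% of probes lie within 0.02 of a constant offset from log2 of the signal floored at 1, which settles its scale, centring and direction.

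Control spots and 70 outlier spots were left out, and log2 signals of 1 probe's spots were averaged. Probes were named by accession, without version, through a RefSeq table of assembly GRCm38.p6. The array design names build mm9, so no coordinates of genes are given beside those of RefSeq promoters. The 23611 unmatched probes are unnamed here. A gene takes its brightest detected probe. Every member of the lists may be named, the high and undetected ones first, with 12 fixed genes, the 30 highest genes and the 10 highest in no list. The 47 lists (1260 symbols, 6 without a probe) and these members were chosen with earlier results of these data known. With 1 array, no test is possible, and precision is limited by the number of arrays. Counting was tested on simulated data. The simulation gave all probes of a gene the same level and set the detection call by a fixed signal limit. It therefore did not cover the gaps and split calls between real probes of 1 gene. Alternatives were 3 other detection calls, outliers kept, the mean of a gene's probes, the authors' log2 values and normexp in limma 3.58.1 (R 4.3.3) with an offset of 50.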

Additional observations from a re-analysis of the deposited data

Results flagged for a closer look

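Signal appeared in probes that the gene descriptions above do not use. Of 23611 probes without a gene name here, 11255 (47.7%) were well above background, while none of the 308 negative control spots was. By identifier, 3849 of 7284 Ensembl transcript probes (52.8%), 2327 of 4450 probes for genomic regions (52.3%), 1083 of 2892 RefSeq accessions without a match in the table (37.4%) and 3996 of 8985 other clone or sequence identifiers (44.5%) were well above background. Of all these probes, 774 exceeded the signal of 4847 that bounds the highest 10% of named genes. What these probes read was not tested.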

How the results depend on the processing

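No paired analysis was possible because the Control group is 1 array and the labels give no replicate numbers. No replicate could be left out for the same reason. The planned normexp correction of the mean spot signal was run on the median spot signal instead, chosen after seeing that the file has no mean column. Counts of detected genes, in all and by role class, were recomputed under the 3 other detection calls and with outlier spots kept, and stayed within 1.5 times the values given. Counts of high members by role class were recomputed with the mean of a gene's probes, normexp, the authors' log2 values and outlier spots kept, and stayed within 1.5 times with 1 exception. With the mean of a gene's probes in place of the brightest, 9 markers of other cell types were high instead of 5. For single lists, 8 of 47 counts moved beyond 1.5 times when detection meant a signal above the 99th percentile of the negative control spots (1.38), 8 with the positive and significant call, 2 when all probes had to be detected and 12 with the mean of the probes. The list counts recomputed with the authors' log2 values, with normexp and with outlier spots kept stayed within 1.5 times. The authors' values are log2 of the same signal with a constant offset for 99.97% of probes. Keeping outliers restored only 70 of 59305 spots. Neither of these settings could therefore move ranks or counts by much. Bglap and Dmp1 were detected under the less strict calls, and Sp7 was not when all probes had to be detected. The percentiles of the 36 named genes tested moved by less than the spread between probes of 1 gene. Signals near the background and the binding of single probes limit the low and undetected classes.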

Other observations

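A few genes outside the lists were looked up after the values had been seen. The Y-linked genes Eif2s3y, Kdm5d, Ddx3y and Uty were detected, at 726, 248, 104 and 39.5, and Xist, the RNA that coats the inactive X chromosome, read 1.02 and was not detected. The metallothionein genes Mt1 and Mt2 were high at 6328 and 6811, although the other probe of Mt1 read 13.9. Among imprinted genes, H19 was low at 20.2 and Meg3 and Dlk1 were not detected at 3.47 and 4.85. Kl, the co-receptor klotho that Fgf23 needs, was not detected at 1.01. Tert, the catalytic subunit of telomerase, was low at 12.104, and Mdm2, which targets the tumour suppressor p53, was in the middle class at 4442.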
